A study of Homo sapiens with 4 samples.

Results

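The cytosolic ribosomal protein genes encode the proteins of the 40S and 60S subunits of the ribosome. They were chosen by gene symbol alone, as protein-coding genes whose symbol is RPL or RPS with a number (and an A, X or L at most), RPLP0 to RPLP2, RPSA or FAU, so pseudogenes and the S6 kinases were left out. This gave 50 genes of the 14884 genes named on the arrays, 19 of the 40S and 31 of the 60S subunit. A gene measured by several probe sets was represented by the one with the highest mean value. RefSeq holds 82 genes that match these symbols, and the other 32, among them RPL3, RPL4, RPL5, RPLP0, RPLP1, RPLP2, RPSA and RPS27A, were not analysed here. All 50 genes lay above the intensity filter and entered the test.

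The arrays were made from U2OS cells, a human osteosarcoma line, transfected for 48 hours with siRNA at 50 nM, either a scramble control or an siRNA against BRPF3, a bromodomain scaffold of histone acetyltransferase complexes. There were 2 arrays per group, labelled as biological replicates. Both groups share the cell line, the medium with serum and the lipid transfection, and the labels give no siRNA sequence, so loss of BRPF3 and other effects of this siRNA cannot be told apart. Per the design text, the second control and second BRPF3 siRNA sample were prepared together as a replicate set, and whether a set marks a culture or a day is not stated, so a p-value here covers array-to-array spread, which may be technical. In bulk RNA, fewer cells of a type and less RNA per cell cannot be told apart. No probe set is named for BRPF3 here, so its depletion was not checked. Of 8 markers of mesenchymal and bone tumour cells 3 were named: vimentin (VIM) read 10.35 to 10.52 on the log2 scale, SPP1 6.60 to 6.95 and RUNX2 6.31 to 6.56. Of the epithelial markers, EPCAM read 7.94 and 7.90 in control cells and 8.15 and 8.22 after BRPF3 siRNA (adjusted p = 0.0754, and 0.0487 after quantile normalization, where it passed), KRT14 read 4.88 to 5.43 and KRT5 lay below the intensity filter, and their part in the results was not tested. LYZ of leukocytes and PECAM1 and VWF of endothelium lay below the filter.

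Ribosomal proteins are needed in equal numbers, and cells hold their production together mainly through translation. Most of their mRNAs start with a terminal oligopyrimidine (TOP) tract, a cytosine followed by a run of C and T bases, through which LARP1 and the mTOR kinase switch their translation on and off. Unassembled ribosomal proteins are degraded, and some, such as RPL11, bind MDM2 and stabilise p53 when assembly fails. Mutations in RPS19, RPS26, RPL11, RPL35A and others cause Diamond-Blackfan anaemia.

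After BRPF3 siRNA the ribosomal protein mRNAs moved little. Of the 50 genes 0 rose and 2 fell, RPS26 and RPL29, at a Benjamini-Hochberg adjusted p under 0.05 in limma's moderated test over all 10696 tested genes. Over all tested genes 15.8% changed, 6.32% rising and 9.44% falling. An unadjusted p under 0.05 was found for 7 of the 50, 6 lower and 1 higher, against 19.8% lower and 14.8% higher among all genes. The level after BRPF3 siRNA ranged from 0.690 to 1.18 times that in control cells. In 5 of the genes it differed at least 1.2-fold, which was the case for 30.8% of all tested genes.

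The members lay slightly lower as a group. Their median log2 difference, BRPF3 siRNA minus control, was -0.075, against -0.032 for all tested genes, and 36 of 50 were below 0, which was the case for 55.1% of all genes. Averaged over the 50 genes, the log2 value was 8.51 and 8.45 in control cells and 8.40 and 8.39 after BRPF3 siRNA. Averaged over all tested genes, it was 7.12 and 7.13 in control cells and 7.09 and 7.10 after BRPF3 siRNA. Neither average overlapped between the groups, but for the members the control arrays differed from each other as well. Of the 50 genes 36 were higher on control array 1 than on control array 2, by a median of 0.070. The median over all genes was -0.0075. Leaving out control replicate 1 put the members' median at -0.061, and leaving out control replicate 2 put it at -0.118. It was -0.025 after quantile normalization and -0.020 after cyclic loess normalization, with all tested genes then at 0.000036 and -0.0019. Both BRPF3 siRNA arrays lay below both control arrays for 22 of the 50 genes, against 35.9% of all tested genes, and above them for 8, against 27.3%. In either direction these were 30 of 50 genes, against 63.2%.

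**Figure D1:**
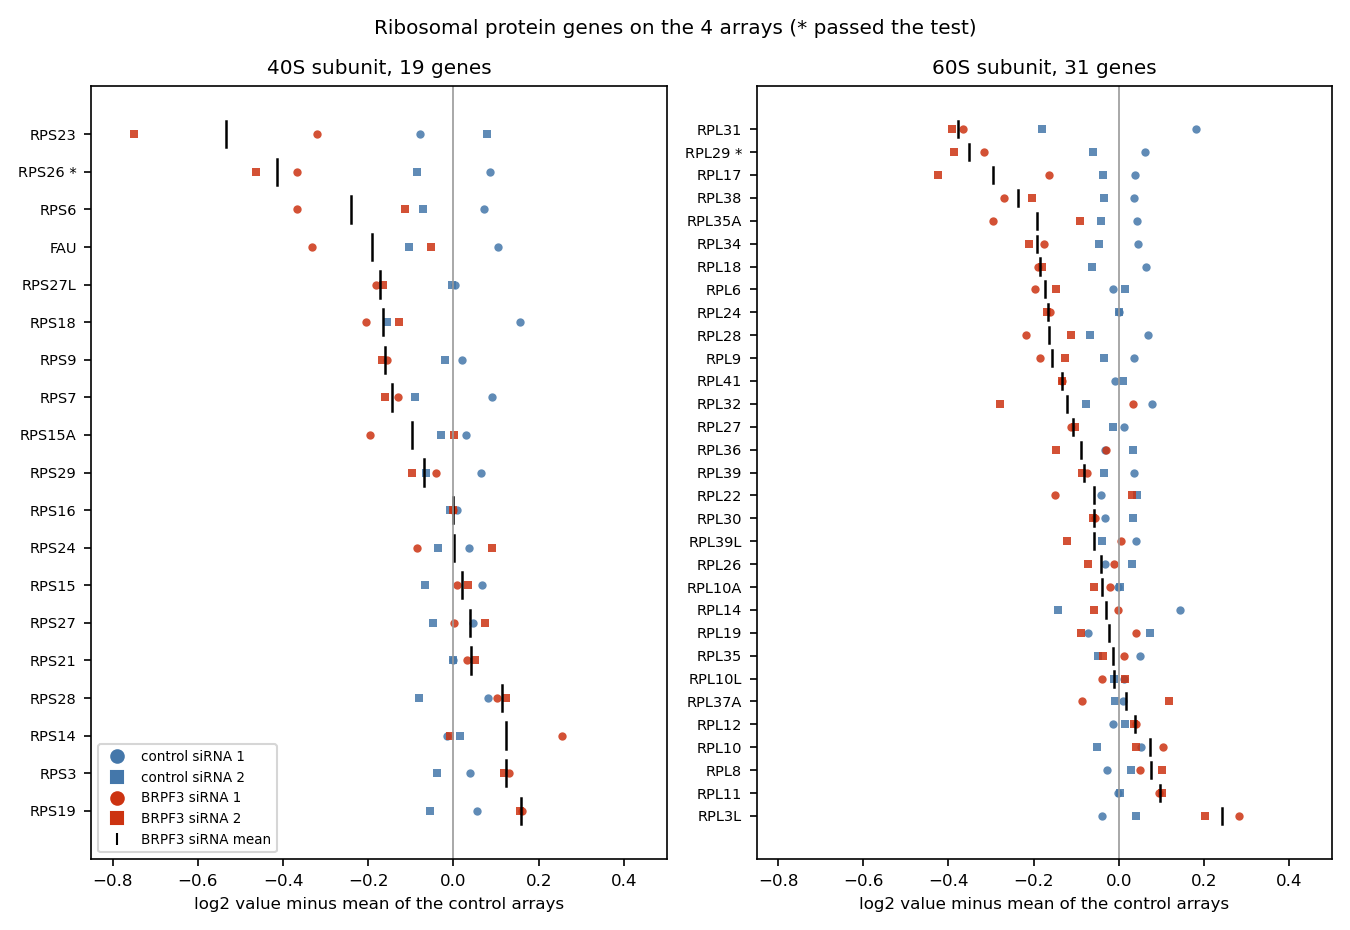
Log2 value on each array minus the gene's mean over the control arrays (x axis) for each ribosomal protein gene (y axis), with 40S genes on the left and 60S genes on the right; blue marks are control and red marks BRPF3 siRNA arrays (circle replicate 1, square replicate 2), and a black bar is the mean of the BRPF3 siRNA arrays. RPS23, RPS26, RPL31 and RPL29 lie lowest, RPL3L and RPS19 highest, and only RPS26 and RPL29, marked with a star, passed the test.

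RPS26 lies at the mRNA exit site of the 40S subunit. It read 7.56 and 7.38 in control cells and 7.10 and 7.01 after BRPF3 siRNA, so both treated arrays were below both controls. It fell by 0.41 ± 0.10 on the log2 scale (adjusted p = 0.0408), where the error, here and for each difference that follows, is the moderated SE of limma from 2 arrays in each group. RPL29, a small basic protein on the surface of the 60S subunit, read 8.17 and 8.05 in control cells and 7.79 and 7.72 after BRPF3 siRNA. It fell to 0.784 of control, by 0.35 ± 0.09 (adjusted p = 0.0470), again with separated arrays. Both calls were lost after quantile normalization (adjusted p = 0.0557 for RPS26 and 0.0735 for RPL29), after cyclic loess normalization (0.0564 and 0.0725), without the intensity filter (0.0917 and 0.102) and without any 1 of the 4 arrays (0.0754 to 0.198 for RPS26 and 0.0871 to 0.224 for RPL29).

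Both genes have many processed pseudogenes, 59 named for RPS26 and 34 for RPL29 in RefSeq, so signal from near-identical copies is uncertain in their probe sets. The same holds for 46 of the 50 genes, with RPL31 leading at 64. The 4 without a named pseudogene are RPL3L, RPL10L, RPL39L and RPS27L. They are relatives of main ribosomal protein genes, and their likeness in sequence was not computed. Signal from those main genes is therefore uncertain in their probe sets too. A few pseudogenes have probe sets of their own. RPS26P11 read 3.82 and 3.91 in control cells and 4.32 and 4.38 after BRPF3 siRNA, higher where RPS26 was lower, but it was too dim to enter the test. RPL29P2 read 7.67 and 7.73 in control cells and 7.93 and 7.57 after BRPF3 siRNA, where the groups overlap.

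The largest difference of the set belonged to RPS23, a protein of the decoding centre, and did not pass the test. It read 8.89 and 9.04 in control cells, and 8.64 and 8.21 after BRPF3 siRNA, so the treated arrays were both low but far apart. The difference was -0.53 ± 0.15 (adjusted p = 0.0691). Without BRPF3 siRNA replicate 1 it was -0.75 and passed (adjusted p = 0.0388), and without replicate 2 it was -0.32 (adjusted p = 0.135).

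The start sites of members at both ends of the range are shown because the TOP tract is the feature through which these mRNAs are known to be controlled together. Each line runs from 10 bases before to 20 bases from the start annotated by RefSeq (GRCh38.p14), with the tract in capitals, where a tract is a C at the first base of the transcript followed by at least 4 bases that are each C or T. Where a gene has several starts, that with the longest tract is given. The first lines are of RPS26 (chr12:56041908-56041937, plus strand), RPL29 (chr3:51995876-51995905, minus strand), RPS23 (chr5:82278335-82278364, minus strand), RPL38 (chr17:74203668-74203697, plus strand) and RPL31 (chr2:101002279-101002308, plus strand), the members with the lowest moderated t. The others are of RPS3 (chr11:75399508-75399537, plus strand), RPL11 (chr1:23691796-23691825, plus strand) and RPS19 (chr19:41860245-41860274, plus strand), which were among the highest.
RPS26: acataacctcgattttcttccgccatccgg
RPL29: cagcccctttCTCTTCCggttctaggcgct
RPS23: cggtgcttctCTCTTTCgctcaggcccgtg
RPL38: aagtctcgttCTTTTTCgtccttttccccg
RPL31: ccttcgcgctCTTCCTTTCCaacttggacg
RPS3: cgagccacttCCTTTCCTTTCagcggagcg
RPL11: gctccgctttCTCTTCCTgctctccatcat
RPS19: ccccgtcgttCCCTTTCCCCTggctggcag

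Of the 50 genes 45 had a promoter entry, and 31 of these (68.9%) had a tract exactly at an annotated start, against 6.24% of 15843 protein-coding genes. A tract beginning within 5 bases of a start was found for 36 (80.0%), against 28.0% of all. RPL30, RPL39L, RPL3L, RPL8 and RPS15A had no entry. Genes with and without a tract had similar medians, with no test made: the median log2 difference was -0.081 over the 31 genes with a tract and -0.12 over the 14 without. RPL29, RPS23, RPL38 and RPL31 at the lower end and RPS19, RPS3 and RPL11 at the upper end carry one. RPS26 has none at its annotated start or within 5 bases of it. Its line does hold a C followed by 4 bases that are each C or T, beginning just past those 5 bases, so its absence depends on the annotated start. Among the other 510 tested genes with a tract, 60 fell (11.8%) and 21 rose (4.12%), with a median difference of -0.053. Of all tested genes 9.44% fell and 6.32% rose, with a median of -0.032. These include genes without a promoter entry, which 7778 of the tested genes had, so the sets compared are unlike. In the 300 bases from 250 before to 50 after the start, on either strand, the ETS core CCGGAAG was present for 14 of the 45 members (31.1%, all genes 16.5%), the YY1 core AAGATGGC for 5 (11.1%, all genes 4.66%), the E-box CACGTG for 3 (6.67%, all genes 10.9%), the GC box GGGCGG for 25 (55.6%, all genes 64.3%) and TATAAA for 3 (6.67%, all genes 12.4%). These counts describe the letters of the window and not binding.

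Within the 40S subunit 1 of 19 genes fell and 0 rose, against 9.44% falling and 6.32% rising among all tested genes. Of the 40S genes 11 were below 0 (57.9%, all tested genes 55.1%). Their median log2 difference was -0.070, against -0.032 for all tested genes. That median moved to -0.0043 when control replicate 1 was left out, to -0.13 for control replicate 2 and to -0.0079 for BRPF3 siRNA replicate 1. RPS6, the target of the S6 kinases, read 7.53 and 7.39 in control cells and 7.09 and 7.34 after BRPF3 siRNA, lower by 0.24 on the mean but with BRPF3 siRNA replicate 2 close to the controls (-0.24 ± 0.11, adjusted p = 0.197). FAU, which is made as a fusion of a ubiquitin-like protein with a 40S protein, read 7.03 and 6.82 against 6.59 and 6.87, and the groups overlapped (-0.19 ± 0.13, adjusted p = 0.338). RPS9, a protein of the mRNA entry side that bears on decoding accuracy, had tight arrays, 7.12 and 7.07 against 6.94 and 6.93 (-0.16 ± 0.08, adjusted p = 0.199). RPS7, the dimmest of the set, read 5.35 and 5.17 against 5.13 and 5.10 (-0.15 ± 0.09). RPS18 differed by -0.17 ± 0.12 on its brighter probe set (0.075 on the dimmer), RPS15A by -0.10 ± 0.10 and RPS29 by -0.070 ± 0.09. None of these 4 passed.

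The upper end of the 40S genes was formed by RPS19, RPS3, RPS28 and RPS14. RPS19, the gene most often mutated in Diamond-Blackfan anaemia, read 11.27 and 11.16 in control cells and 11.38 and 11.37 after BRPF3 siRNA, separated but small (0.16 ± 0.08, adjusted p = 0.234). RPS3, a protein of the mRNA entry channel, read 7.90 and 7.82 against 7.99 and 7.98 (0.12 ± 0.08, adjusted p = 0.318). RPS28 (0.11 ± 0.09) was separated upward as well. RPS14, a neighbour of RPS26 at the mRNA exit whose loss marks the 5q deletion syndrome, differed by 0.12 ± 0.11, with BRPF3 siRNA replicate 1 at 7.23 and replicate 2 at 6.97, between the controls at 6.96 and 6.99. RPS21, RPS27, RPS15, RPS24 and RPS16 differed by 0.041 at most in size. RPS16 was the steadiest, with 8.56 and 8.55 in control cells and 8.55 and 8.56 after BRPF3 siRNA.

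Within the 60S subunit 1 of 31 genes fell and 0 rose, against 9.44% falling and 6.32% rising among all tested genes. The 60S median was -0.081, against -0.032 for all tested genes, and 25 were below 0 (80.6%, all tested genes 55.1%). On single arrays the mean of the 60S genes was 8.35 and 8.31 in control cells and 8.25 and 8.23 after BRPF3 siRNA, and that of the 40S genes was 8.77 and 8.68 against 8.64 and 8.65. Both subunits were lower on the BRPF3 siRNA arrays, as was the average over all tested genes. Control array 1 was the highest for both subunits. After quantile normalization the medians were -0.0019 for the 40S and -0.041 for the 60S genes. Then 10 of 19 and 19 of 31 were below 0 (52.6% and 61.3%, all tested genes 50.0%).

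Among the 60S genes, RPL38, known in mice for its part in translating Hox mRNAs, read 7.65 and 7.58 in control cells and 7.35 and 7.41 after BRPF3 siRNA (-0.24 ± 0.08, adjusted p = 0.101). RPL31, a protein at the exit of the nascent chain, read 6.22 and 5.86 against 5.67 and 5.65, a wide spread between the controls (-0.38 ± 0.13, adjusted p = 0.103). RPL17, also near the exit, read 9.16 and 9.08 against 8.96 and 8.70 (-0.29 ± 0.11, adjusted p = 0.121). RPL39, RPL26, RPL19 and RPL35 differed by -0.081 to -0.013. RPL24, which bridges to the 40S subunit, was the tightest of the lower genes, at 9.45 on both control arrays and 9.29 and 9.28 after BRPF3 siRNA (-0.17 ± 0.08, adjusted p = 0.185).

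RPL34, RPL6, RPL18, RPL35A, RPL9, RPL28 and RPL27 lay lower by 0.11 to 0.19 with separated arrays, and their adjusted p-values ran from 0.155 to 0.366. RPL11, the MDM2-binding partner of the 5S ribonucleoprotein, was separated upward, at 10.56 on both control arrays and 10.65 and 10.66 after BRPF3 siRNA (0.10 ± 0.08, adjusted p = 0.413). RPL8, a protein near the peptidyl transferase centre (0.075 ± 0.08), and RPL12 of the stalk base, at 12.41 and 12.43 against 12.46 and 12.45 (0.037 ± 0.08), were also separated upward, by less than their errors. RPL10, which joins the subunit late at the peptidyl transferase centre, read 12.06 and 11.96 against 12.11 and 12.05, and the groups overlapped (0.073 ± 0.08). RPL22, an RNA-binding protein, read 5.31 and 5.39 against 5.20 and 5.38, again with overlap (-0.060 ± 0.10), and RPL36, RPL32, RPL14 and RPL37A overlapped as well. RPL10A of the L1 stalk and RPL30 were separated downward by 0.040 and 0.058, which is within 1 SE of 0.

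4 members are relatives of a main ribosomal protein that are made in particular tissues or states. RPL3L, the form of RPL3 in heart and skeletal muscle, had the largest upward difference of the set. It read 5.36 and 5.44 in control cells and 5.68 and 5.60 after BRPF3 siRNA, separated but not past the test (0.24 ± 0.08, adjusted p = 0.102). RPS27L, a p53-responsive relative of RPS27, read 6.45 on both control arrays and 6.27 and 6.28 after BRPF3 siRNA (-0.17 ± 0.08, adjusted p = 0.170), while RPS27 itself read 12.41 and 12.32 against 12.37 and 12.44 (0.038 ± 0.08). RPL10L and RPL39L are both known from testis. RPL10L read 7.18 and 7.16 against 7.13 and 7.18 (-0.012 ± 0.08) and RPL39L 7.60 and 7.52 against 7.57 and 7.44 (-0.058 ± 0.09), and both overlapped.

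The probe sets of the set span 5.1 to 12.6 on the log2 scale, and brightness of different probe sets does not rank the genes by abundance. Within the set, the 25 dimmer genes had a lower median difference than the 25 brighter ones. Over the 25 brighter members the median difference was -0.040, and over the 25 dimmer members -0.15. After quantile normalization these were 0.061 and -0.14. In the brightest decile of tested genes the 13 ribosomal protein genes had a median difference of 0.037 where all genes of that decile had -0.076, and after quantile normalization 0.081 against 0.017. In the decile from 6.93 to 7.45 the 8 members were at -0.16 and all genes at -0.026. Across the 50 members the correlation of mean log2 value and difference was r = 0.317 (Spearman's rho = 0.360), and across all 10696 genes r = -0.0757 (rho = -0.0964). These are descriptions across genes on the same 4 arrays, and the part of brightness in the differences was not tested.

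**Figure D2:**
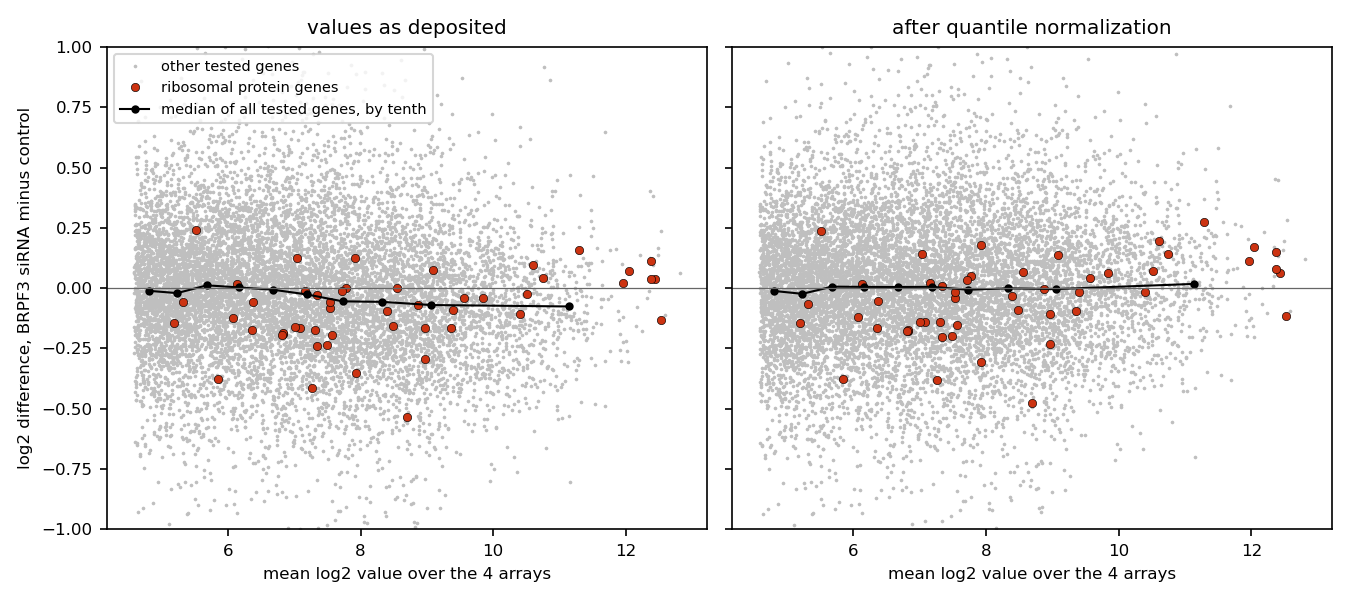
Log2 difference (BRPF3 siRNA minus control, y axis, drawn from -1 to 1) against the mean log2 value over the 4 arrays (x axis) for all tested genes (grey) and the 50 ribosomal protein genes (red), as deposited (left) and after quantile normalization (right); black points are medians of all tested genes in deciles of brightness. As deposited the black line falls from -0.011 in the dimmest to -0.076 in the brightest decile, where the 13 ribosomal protein genes have a median of 0.037 and RPL41 and RPL27 lie below the line.

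For 4 members several probe sets allow the value of a gene to be read more than once. The 5 probe sets of RPL41, the smallest ribosomal protein, disagreed in direction. The brightest read 12.59 and 12.61 in control cells and 12.47 and 12.46 after BRPF3 siRNA, a difference of -0.13, and the dimmest differed by -0.28, while the other 3 differed by 0.10, 0.14 and 0.12. RPS18 differed by -0.17 on its brighter and 0.075 on its dimmer probe set. RPL39 differed by -0.081 and 0.014, and RPL19 by -0.024 and 0.0016. None of the 4 genes passed the test, also when the probe sets of a gene were averaged.

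The order of the probe sets on the array gives a further reading. Probe sets next to each other in the numbering mostly belong to genes of 1 chromosome, and a gene with no neighbour on its own chromosome among the 6 nearest named probe sets is rare, with 0.343% of 14884 genes. Among the 50 ribosomal protein genes there were 7: RPL10, RPL12, RPL31, RPL41, RPS18, RPS27 and RPS28. Of these, RPL10, RPL12, RPL41, RPS27 and RPS28 also lie in the brightest decile of tested genes. The median given above for the members of that decile includes them. For RPL41 and RPS18 this concerns the brightest probe set, which was the one used. The dimmest RPL41 probe set (-0.28) is numbered near that of RPS26, also on chromosome 12. The dimmer RPS18 probe set (0.075) is numbered near that of RPL10A, also on chromosome 6. The part of probe set placement in the values was not tested. Without these 7 genes the counts were the same, 0 risen and 2 fallen, and the median difference was -0.081.

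**Figure D3:**
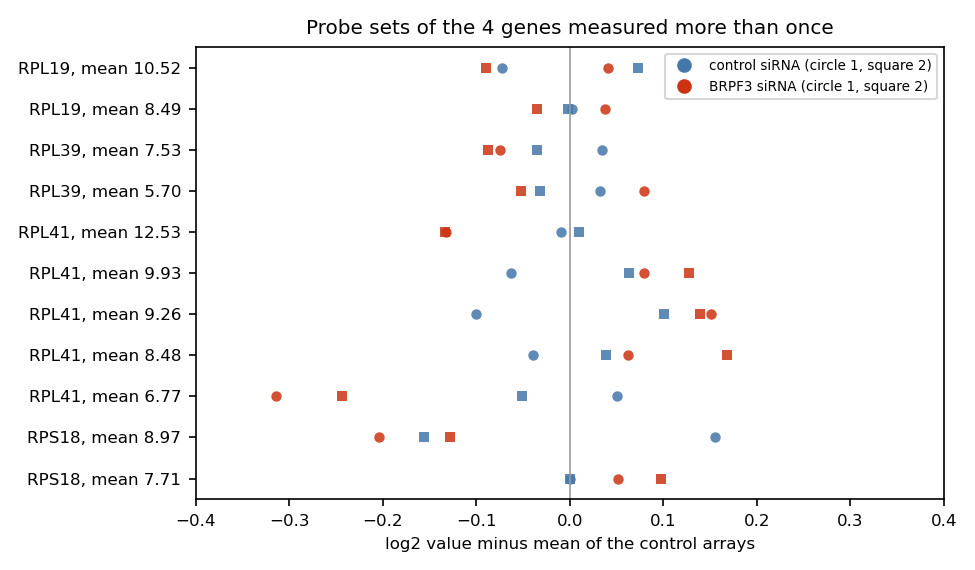
Log2 value on each array minus the mean over the control arrays (x axis) for every probe set of RPL19, RPL39, RPL41 and RPS18, labelled with its mean log2 value; blue marks are control and red marks BRPF3 siRNA arrays (circle replicate 1, square replicate 2). For RPL41 the brightest and dimmest probe sets lie below control and the 3 between them above.

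Outside the set, 3 of 4 relatives with other symbols fell, RPL36AL, RPL26L1 and RPL22L1, against 9.44% of all tested genes. This list and those that follow were chosen with earlier results of these data known, so their shares are descriptions only. RPL36AL, a relative of RPL36A, read 6.79 and 6.75 in control cells and 6.29 and 6.30 after BRPF3 siRNA (-0.47 ± 0.08, adjusted p = 0.0198). RPL26L1 read 7.06 and 7.03 against 6.46 and 6.63 (-0.50 ± 0.09, adjusted p = 0.0257). RPL22L1 read 6.85 and 6.63 against 6.30 and 6.26 (-0.46 ± 0.10, adjusted p = 0.0352). The main forms on these arrays did not follow, with RPL26 at -0.041 ± 0.08 and RPL22 at -0.060 ± 0.10, though the difference between a main form and its relative was not tested. The fourth relative, RPL7L1, differed by 0.10 ± 0.09 (adjusted p = 0.458). The 3 calls held after quantile and cyclic loess normalization, and were lost without the intensity filter. Leaving out BRPF3 siRNA replicate 2 kept 1 call, and leaving out any of the other 3 arrays kept 0. The starts of the 3 are shown beside that of RPS27L because only RPL22L1 (chr3:170870176-170870205, minus strand) has a tract exactly at the annotated start. In RPL36AL a run of C and T bases crosses the start, so a tract begins within 5 bases before it. RPL26L1 is at chr5:172958719-172958748 (plus strand), RPL36AL at chr14:49620607-49620636 (minus strand) and RPS27L at chr15:63157458-63157487 (minus strand).
RPL22L1: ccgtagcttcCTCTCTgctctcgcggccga
RPL26L1: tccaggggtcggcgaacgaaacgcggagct
RPL36AL: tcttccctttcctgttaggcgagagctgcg
RPS27L: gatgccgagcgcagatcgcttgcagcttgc

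Of 15 tested genes that deliver ribosomal proteins or act late in subunit assembly 7 fell and 0 rose, with a median difference of -0.24, against 9.44% falling among all genes. PDCD2L, which works with RPS2, read 8.19 on both control arrays and 7.54 and 7.77 after BRPF3 siRNA (-0.53 ± 0.10, adjusted p = 0.0271). BCCIP, the chaperone of RPL23, read 8.45 and 8.43 against 7.84 and 8.06 (-0.49 ± 0.10, adjusted p = 0.0310). ZNF622, a factor of late 60S maturation, read 8.56 and 8.57 against 8.11 and 8.13 (-0.45 ± 0.08, adjusted p = 0.0222). The late 40S factors RIOK1 (-0.39 ± 0.08), RIOK2 (-0.37 ± 0.08) and LTV1 (-0.35 ± 0.08) and the import receptor IPO7 (-0.32 ± 0.08) fell too. HEATR3, which imports RPL5 and RPL11 (-0.20 ± 0.08, adjusted p = 0.159), PRMT3, which modifies RPS2 (-0.055 ± 0.10), and GRWD1, the chaperone of RPL3 (0.025 ± 0.08), did not pass. PDCD2L, BCCIP and ZNF622 kept their calls after quantile normalization, and the other 4 lost them. With the replicate set as a block IPO7 lost its call (adjusted p = 0.0617) and 6 fell. There were 2 calls without BRPF3 siRNA replicate 2, and 0 without each of the other 3 arrays or without the filter. TSR2, the chaperone of RPS26, and AAMP were not analysed here.

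Of 12 other genes listed for a known TOP tract in their transcripts, 1 rose and 2 fell, against 6.32% rising and 9.44% falling among all genes. The list's median was -0.11, and it was -0.053 after cyclic loess normalization. NACA, a subunit of the nascent chain complex at the tunnel exit (-0.40 ± 0.09, adjusted p = 0.0365), and GAS5, a noncoding host of small nucleolar RNAs (-0.33 ± 0.08, adjusted p = 0.0450), fell, and EEF1D, a subunit of the elongation factor 1 exchange complex, rose (0.33 ± 0.08, adjusted p = 0.0424). All 3 calls were lost without the filter and without any 1 array, and that of GAS5 after quantile normalization. With the replicate set as a block NACA kept its call, while EEF1D (adjusted p = 0.0550) and GAS5 (adjusted p = 0.0585) lost theirs. Elongation factor EEF2, at 12.66 and 12.64 against 12.56 and 12.52, differed by -0.11 ± 0.08 (adjusted p = 0.358). Of 7 other initiation factors 0 rose and 0 fell in limma's test. An unadjusted p under 0.05 was found for 1 of them, against 19.8% lower and 14.8% higher among all tested genes. The lowest was EIF5B (-0.24 ± 0.09) and the highest EIF1 (0.13 ± 0.08).

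Among 11 genes that regulate ribosome production and translation through TOR, LARP1 and MYC, 3 rose and 0 fell, against 6.32% rising and 9.44% falling among all genes. The list's median was 0.12, and it was 0.20 after quantile normalization, 0.19 after cyclic loess normalization and 0.18 without control replicate 2. MTOR, the kinase itself, read 8.68 and 8.74 in control cells and 9.18 on both BRPF3 siRNA arrays (0.47 ± 0.08, adjusted p = 0.0210). EEF2K, the kinase that inhibits EEF2, rose by 0.46 ± 0.09 (adjusted p = 0.0311) and EIF4EBP2, an inhibitor of EIF4E, by 0.38 ± 0.08 (adjusted p = 0.0382). DDIT4, an inhibitor of TOR signalling, had the largest difference and did not pass (0.53 ± 0.26, adjusted p = 0.208), with BRPF3 siRNA replicate 2 at 8.54 and the other 3 arrays from 7.47 to 7.80. MYC differed by 0.090 ± 0.09 (adjusted p = 0.520). LARP1 and RPTOR were not analysed here. The 3 risen genes kept their calls after quantile and cyclic loess normalization. There was 1 call without BRPF3 siRNA replicate 1, and 0 without each of the other 3 arrays or without the filter.

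**Figure D4:**
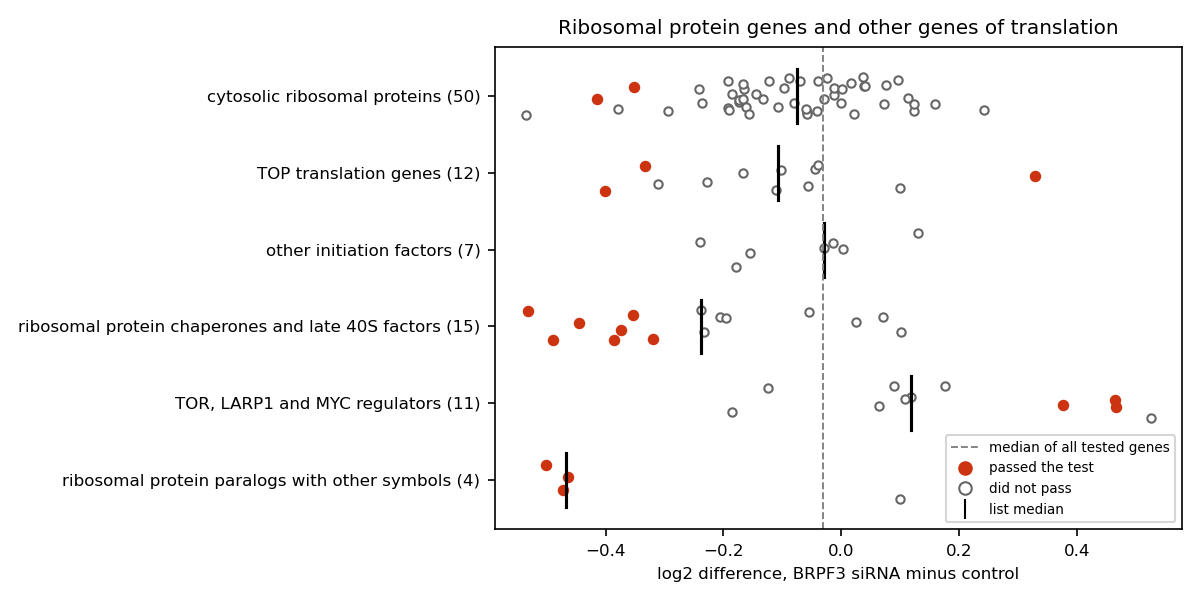
Log2 difference (BRPF3 siRNA minus control, x axis) of each tested gene of the ribosomal protein set and of 5 other lists of translation genes (rows, with the number of genes); filled points passed limma's test, open points did not, black bars are list medians and the dashed line is the median of all tested genes, -0.032. The list medians run from -0.47 for the relatives with other symbols to 0.12 for the regulators, and 2 of the 50 ribosomal protein genes are filled.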

How the data were processed

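The authors deposited log2 values for 53617 probe sets on 4 Affymetrix arrays, made with RMA (background correction, normalization between arrays and probe set summary), per the submitters' processing notes. Version, settings and the layout of probes were not given in the sources used here. Values ran from 0.80 to 13.57 with array medians of 4.60, and were used as deposited. RMA removes shifts common to all transcripts and can compress differences of dim probe sets. A platform annotation named 16098 probe sets (14884 genes, none with several symbols), and RefSeq (GRCh38.p14) changed 0 symbols. Genes were tested if their mean reached 4.59, the median over all probe sets.

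The test was the two-sided moderated test of limma 3.58.1 (lmFit, then eBayes; R 4.3.3; 2 residual degrees of freedom; no covariate), with p-values Benjamini-Hochberg adjusted over 10696 genes. "Rose", "fell" and "changed" mean that the adjusted p was under 0.05. An exact permutation test of 2 arrays against 2 cannot reach a p below 0.333. Same-numbered arrays belong to 1 replicate set per the design text, and their deviations from the group means correlated with r = 0.141 over 10696 genes. The fit without that block was kept as the main one, and a fit with it is given where it changes a call. The procedure was tested on simulated data, in which fewer genes were changed than were called here. It recovered 42.2% of genes changed 1.5-fold and 91.8% of those changed 2-fold, and 4.3% of its calls were false. Of the members 0 differed by 1.5-fold or more. The members and lists were chosen with earlier results of these data known. Any member could be named. Values on each array were set for members past the test, the 4 highest and 4 lowest by moderated t, the 3 brightest and 3 dimmest, forms ending in L and some by name. Of each other list, genes past the test were named, or else the 2 highest and 2 lowest. The array values of RPL17, RPL24, RPS9, RPS14 and RPS16, and HEATR3, PRMT3, GRWD1, EEF2, DDIT4 and MYC, were chosen after their values were seen.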

Additional observations from a re-analysis of the deposited data

How the results depend on the processing

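The alternatives were quantile and cyclic loess normalization, median centring, an intensity trend, a block for the replicate number, robust fitting, no intensity filter, averaged probe sets and leaving out each array in turn. Leaving out the 7 genes without a neighbour on their chromosome was chosen after seeing the data. The count of 1686 changed genes became 2645 with an intensity trend and 409 without the filter, and lay between 0 and 791 when 1 array was omitted, where 2446 and 2477 genes had an unadjusted p under 0.05 in limma without control replicate 1 or 2. Of the changed genes 59.9% fell as deposited, 48.4% after quantile and 49.0% after cyclic loess normalization.

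Fallen ribosomal protein genes numbered 0 after quantile and 0 after cyclic loess normalization, 0 without the filter, 5 with an intensity trend, where 1 rose, and 0 to 1 with an array left out (2 as reported). Among all 10696 tested genes 718 fell after quantile and 736 after cyclic loess normalization, and 1609 fell and 1036 rose with the trend. Without the filter 224 of 14884 genes fell. With the trend RPS23, RPL17 and RPL41 fell and RPS19 rose. The members' median was -0.025 after quantile and -0.020 after cyclic loess normalization and lay between -0.118 and -0.061 when 1 array was omitted. A lone array was assumed to vary like the other group. No called member changed sign in any setting run, but most settings could not have changed it. The block, trend, robust and filter settings leave the difference as it is. With separated arrays, leaving out 1 array cannot reverse it. Under each of quantile and cyclic loess normalization 7 uncalled members changed sign.

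Of the chaperones and late factors 3 fell after quantile normalization, 4 after cyclic loess, 0 without the filter and 0 to 2 with an array left out. Of the TOP genes 1 fell after quantile, 1 after cyclic loess normalization, 4 with a trend, and 0 fell and 0 rose without the filter or with an array left out. With a trend 1 of the other initiation factors fell. Without the filter 0 of the relatives fell and 0 regulators rose, and with an array left out 0 to 1 relatives fell and 0 to 1 regulators rose.

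With the replicate number as a block 1604 genes changed, RPS26 and RPL29 among them, and 1 TOP gene fell and 0 rose. Apart from EEF1D, GAS5 and IPO7, the block changed no call of a gene named from the set or the lists. The number of arrays limits the precision; at this size a missed threshold does not show that a gene stayed level.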
